A study of Mus musculus with 16 samples.

Results

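Leukocytes of irradiated MC38 tumors were compared with leukocytes of irradiated Panc02-SIY tumors, gene by gene and cell class by cell class, in single-cell RNA libraries. MC38 was derived from a mouse colorectal carcinoma, and Panc02-SIY from a mouse pancreatic adenocarcinoma and carries SIY, a model antigen for T cells. Tumors grew under the skin of the right flank of C57BL/6J mice, 6 to 8 weeks old, received 1 CT-guided dose of 12 Gy (RT) and were harvested 24 h later. Untreated tumors of both lines (NT) were harvested, enriched and sorted for live CD45+ cells in the same way, so that all 4 groups share the strain, the site and the sort and differ in line and radiation. The members were chosen by their titles and not by any measured value: 8 of the 16 libraries of the series, 4 of MC38 RT and 4 of Panc02-SIY RT, with 10036 of the 20768 cell barcodes kept in the series. The lines were implanted in different cell numbers and each stands for 1 tumor model, and line, number of cells implanted and tumor model cannot be told apart here. The labels do not tie a library to an animal, and the study's methods give fewer animals than libraries per group while the series text gives as many. Libraries may therefore share an animal, and p-values measure the spread between libraries, which may be technical, and may be too small.

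CD45, the product of Ptprc, marks leukocytes, and a CD45+ sort of a tumor holds macrophages and monocytes, neutrophils, dendritic cells, mast cells, NK cells, T cells and B cells in shares that differ between tumor models. Macrophages and monocytes take up dying cells, secrete chemokines that recruit further leukocytes, and respond to type I and type II interferons through STAT and IRF factors. Radiation damages DNA, which activates p53 in the cells it hits, and DNA and RNA from damaged cells can trigger the sensors that lead to type I interferon.

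Libraries of MC38 tumors shared most of their barcode strings. Pairs of MC38 RT libraries had a median of 1041.5 strings in common, 85.9% of the smaller library, while pairs of Panc02-SIY RT libraries had 82.5, or 5.5%. Over all 8 MC38 libraries, 1239 of 2632 distinct strings occurred in more than 1 library, and the richest library held a median of 76.4% of the UMIs (unique molecular identifiers, which count captured RNA molecules) of such a string. Each string was therefore kept only in the library of its line in which it had the most UMIs. This left 147 to 609 barcodes and 1385711 to 8500889 UMIs per MC38 RT library (11.4 to 41.7% of the barcodes and 42.8 to 84.0% of the UMIs), and 1119 to 3242 barcodes and 5275195 to 26738456 UMIs per Panc02-SIY RT library (93.8 to 97.3% of the barcodes). The kept barcodes held a median of 2991 to 10552.5 UMIs in MC38 RT and 3538 to 6004 in Panc02-SIY RT. Since the MC38 values rest on this step, the counts of some lists and many single values are also given from the 77 to 350 barcodes per MC38 RT library whose string was found in 1 library only. For the other lists, counts on such barcodes are not given here. Those barcodes were shallower, with medians of 2236 to 3087.5 UMIs in the mononuclear phagocyte-like class of MC38 RT against 9436 to 13031 in Panc02-SIY RT.

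Barcodes of irradiated MC38 tumors were mainly macrophage and monocyte-like, and T cell-like, NK cell-like and neutrophil-like barcodes had larger shares in irradiated Panc02-SIY tumors. Barcodes were clustered, and a cluster was named only by the markers of its class, which is why each name ends in "-like". The mononuclear phagocyte-like class, named by C1qa, Csf1r, Apoe, Lyz2 and related markers, made up 61.1% ± 5.58 of barcodes in MC38 RT and 12.4% ± 5.25 in Panc02-SIY RT (mean ± SD over 4 libraries each). T cell-like barcodes were at 7.58% ± 2.07 against 25.8% ± 5.98, NK cell-like barcodes at 3.64% ± 0.583 against 15.4% ± 3.13, and neutrophil-like barcodes at 0.706% ± 0.32 against 13.2% ± 3.48. For none of these 4 classes did the libraries of one line overlap with those of the other. An exact two-sided permutation test over the libraries gave p = 0.0286 for each, the smallest p that 4 against 4 allows, and 0.0357 after adjustment over 10 classes. The phagocyte-like share stayed higher in MC38 RT with all barcodes (80.4% against 13.3%) and with barcodes of 1 library only (41.0% against 12.2%). The NK cell-like share depended on the clustering: it was 9.44% against 16.1% at Leiden resolution 2, where the exact permutation p was 0.0571 (adjusted 0.0714), and 13.3% against 20.1% with 10 principal components (adjusted exact permutation p = 0.0327).

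The rarer classes followed at smaller shares. Plasmacytoid dendritic cell-like barcodes made up 0.212% against 1.82%, and mast cell and basophil-like barcodes 0.111% (2 barcodes) against 0.671% (62 barcodes), both with an adjusted exact permutation p of 0.0357. B cell-like barcodes, at 0.787% against 1.66%, and conventional dendritic cell-like barcodes, at 3.77% ± 1.33 against 2.83% ± 0.473, did not pass (adjusted exact permutation p = 0.127 and 0.286). With all barcodes both passed (0.0321 for each in the same exact test), and with a filter on cells of low quality B cell-like barcodes passed (0.0408) while plasmacytoid dendritic cell-like barcodes did not (0.159). Clusters with tumor, stromal and endothelial markers made up 6.13% ± 3.72 of MC38 RT barcodes and 1.91% ± 0.836 of Panc02-SIY RT barcodes. By UMIs the order was the opposite: they held 0.396% of the UMIs of MC38 RT and 5.43% of those of Panc02-SIY RT. Levels are given in CPM (UMIs of a gene scaled to the same total in every library), here pooled over each group. In these clusters Ptprc reached 43.1 CPM in MC38 RT and 39.2 in Panc02-SIY RT, against 441 and 1579 in the phagocyte-like class. Ptprc was found in 4.29% and 29.5% of their barcodes, which held a median of 628.5 and 4375.5 UMIs. In the phagocyte-like class it was found in 89.7% and 99.3%. Whether the label CD45+ holds for the stromal-like clusters was not tested. Their difference did not pass with the cell filter (adjusted exact permutation p = 0.429). Their share was 11.7% against 1.69% with barcodes of 1 library only, but 1.48% against 3.21%, the opposite order, with all barcodes. Unnamed clusters held 15.9% of MC38 RT barcodes and 24.3% of Panc02-SIY RT barcodes. Among them, cluster 1, with 9 raised phagocyte markers, held 0.923% against 7.05%. Cluster 3, with 8 raised T cell markers, held 1.86% against 8.97%, and cluster 7, with 4 raised NK cell markers, 10.8% against 4.42%. None of these is in the share of a named class. At Leiden resolution 2 the phagocyte-like share was 61.4% against 17.3% and the T cell-like share 8.21% against 26.8%.

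**Figure D1:**
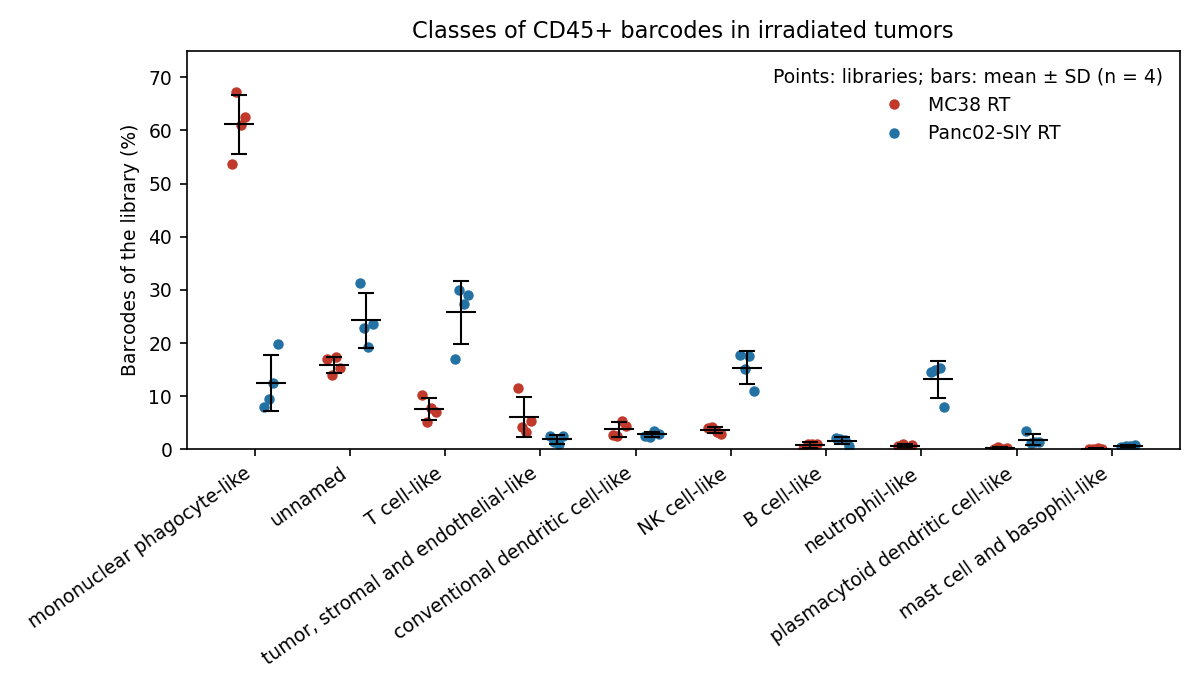
Share of kept CD45+ barcodes (percent, y axis) in each class and in unnamed clusters (x axis) for the 4 MC38 RT and the 4 Panc02-SIY RT libraries. Each point is 1 library and each bar a mean ± SD; the mononuclear phagocyte-like class lies at 53.7 to 67.2% in MC38 RT and at 7.95 to 19.8% in Panc02-SIY RT.

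The 2 lines differed at most genes. UMIs were summed per library over all CD45+ barcodes, and a gene was called when its Benjamini-Hochberg adjusted p was below 0.1 in edgeR's quasi-likelihood test and its fold change above 1.3. Of 12447 genes tested, 7286 were called (58.5%), 3723 higher in MC38 RT (29.9%) and 3563 lower (28.6%). Libraries of the 2 lines did not overlap at 6426 genes (51.6%), and 5894 genes met both conditions. With so high a background, a called gene says little about that gene alone, and the sizes of the differences and the groups they fall in are given instead. In such sums, more cells of a type and more RNA of a gene per cell cannot be told apart, and mononuclear phagocyte-like barcodes gave 85.2% of the UMIs of MC38 RT but 29.5% of those of Panc02-SIY RT. The 15 mononuclear phagocyte markers summed to 26905 to 36728 CPM in MC38 RT and to 4110.1 to 6293 in Panc02-SIY RT. The split of the calls depended on the scaling: with library size alone, without the trimmed mean of M values (TMM), the median of all log2 fold changes moved from 0.0042 to -0.37 and the calls became 2130 higher and 5640 lower. With barcodes of 1 library only, 3307 of 11472 genes were called, 1513 higher and 1794 lower. List counts on such barcodes are to be read against these numbers. Without the stromal-like clusters 7305 of 12200 were called.

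The largest differences among genes with non-overlapping libraries and at least 50 CPM in one line included genes of macrophages, mast cells and neutrophils. Values of 4 libraries are given in the order of their replicate numbers, in CPM scaled by TMM, and log2 fold changes are MC38 RT over Panc02-SIY RT ± standard error. Tmem119, a membrane protein used as a marker of microglia, stood at 38.1, 69.6, 67.9 and 111 CPM in MC38 RT and at 1.98, 0.295, 0.272 and 0.983 in Panc02-SIY RT (log2 fold change 6.58 ± 0.45, adjusted p = 4.3e-08). Fcrls, an Fc receptor-like gene of microglia and some macrophages, was at 22.5, 36.8, 65.04 and 83.8 against 0.494, 1.33, 0.681 and 0.407 CPM (log2 fold change 6.28 ± 0.69, adjusted p = 4e-06). Pdpn, the podoplanin gene, was at 66.1, 54.8, 39.5 and 71.2 against 3.95, 0.810, 0.340 and 0.712 CPM (log2 fold change 5.76 ± 0.51, adjusted p = 4.5e-07). Every MC38 RT library was far above every Panc02-SIY RT library for these 3 genes, and Panc02-SIY RT library 1 was the highest of its group for Pdpn. Trem2, a lipid-sensing receptor of macrophages, was at 274, 394, 334 and 405 against 6.42, 8.25, 5.51 and 8.64 CPM (log2 fold change 5.59 ± 0.23, adjusted p = 2.2e-10). Ch25h, the enzyme that makes 25-hydroxycholesterol, was at 133, 93.7, 37.6 and 82.2 against 1.32, 1.62, 3.81 and 5.19 CPM (log2 fold change 4.67 ± 0.45, adjusted p = 8.7e-07). From barcodes of 1 library only, the log2 fold changes of Tmem119, Fcrls, Pdpn, Trem2 and Ch25h were 5.23, 4.80, 4.72, 3.85 and 2.43. The non-coding transcript AY036118 was also among the 10 largest (1218, 1774, 1153 and 1492 against 63.2, 49.9, 19.5 and 83.0 CPM; log2 fold change 4.71 ± 0.43, adjusted p = 5.6e-07).

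**Figure D2:**
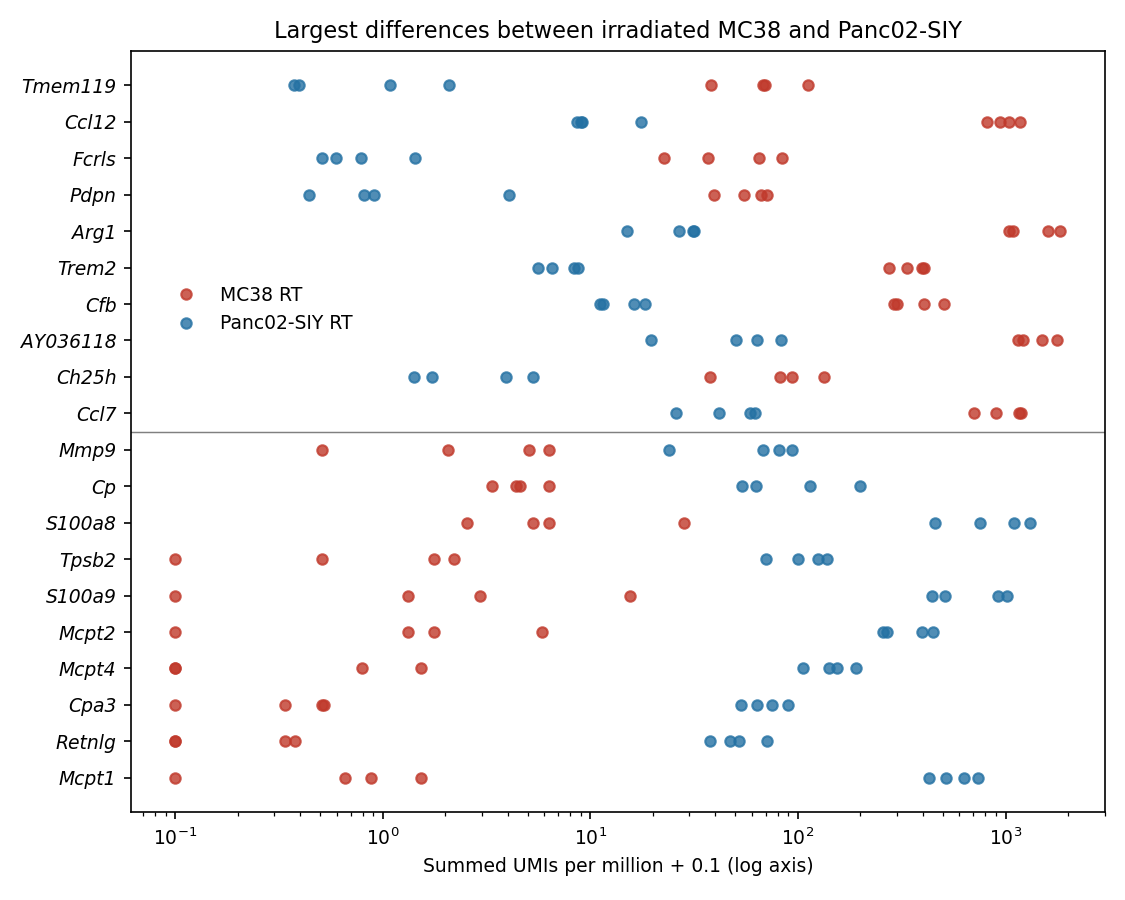
CPM plus 0.1 (x axis, log scale) of the 10 genes most raised and the 10 most lowered in irradiated MC38 relative to irradiated Panc02-SIY (y axis), by the rule of non-overlapping libraries and at least 50 CPM in one line. Each point is 1 library; for Mcpt1 the Panc02-SIY RT libraries lie at 426 to 736 CPM and the MC38 RT libraries at 0 to 1.42.

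Most tested members of the macrophage gene lists were higher in MC38 RT. Among all genes tested, 29.9% were higher and 28.6% lower. The mononuclear phagocyte markers had 14 of 15 tested members higher and 0 lower (0 and 0), with a median log2 fold change of 2.27, where all genes tested had a median of 0.0042. Where edgeR called no member of a list in a direction, brackets give the number of members in that direction at an unadjusted p under 0.05 in edgeR and the number called by DESeq2. Apoe, the lipid carrier apolipoprotein E and the most abundant member, was at 9252, 12972, 8829.9 and 11590.0 against 497, 487, 574 and 490.1 CPM (log2 fold change 4.38 ± 0.22, adjusted p = 1.5e-09). Fcgr1, the high-affinity IgG receptor, was at 515, 824, 586 and 680.2 against 48.7, 44.8, 53.6 and 97.1 CPM (log2 fold change 3.41 ± 0.35). The list of tissue-resident macrophage and microglia genes had 14 of 16 tested members higher and 1 lower, with a median log2 fold change of 1.98. Besides Tmem119 and Fcrls, these were led by the folate receptor Folr2 (log2 fold change 5.67 ± 1.05) and the scavenger receptor Stab1 (111 to 138 against 3.29 to 6.74 CPM, 4.40 ± 0.18), while the transcription factor Maf was lower (-0.62 ± 0.20, or 0.19 with barcodes of 1 library only). The lipid-associated macrophage genes had 14 of 20 tested members higher and 1 lower, with a median log2 fold change of 1.41. Trem2, Apoc2 (5.20 ± 0.64) and Apoe led them, and Lpl, lipoprotein lipase, was lower (-0.91 ± 0.36), a call that was lost without MC38 RT library 2 (-0.70). Monocyte genes had 7 of 13 tested members higher and 1 lower, with a median log2 fold change of 1.11. Using barcodes of 1 library only these lists were less one-sided: the phagocyte markers had 4 higher and 0 lower (0 at an unadjusted p under 0.05) of 15, with a median of 0.57, the resident genes 4 higher and 0 lower (1 at an unadjusted p under 0.05) of 14, with a median of 0.80, the lipid-associated genes 5 higher and 3 lower of 18, with a median of 0.42, and the monocyte genes 3 higher and 2 lower of 13, with a median of -0.12. Of all 11472 genes tested on such barcodes, 1513 were higher and 1794 lower, with a median of -0.053.

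Chemokines of the CC family went in both directions. These small secreted proteins attract leukocytes through G protein-coupled receptors, and 3 that act on monocytes through CCR2 lie close together on mouse chromosome 11 (mm10): Ccl2 at chr11:82035571-82037453, Ccl7 at chr11:82045712-82047525 and Ccl12 at chr11:82101845-82103400, all on the plus strand. Ccl12 was at 1169, 938, 810.0 and 1033 CPM in MC38 RT and at 9.05, 8.54, 8.92 and 17.4 in Panc02-SIY RT (log2 fold change 6.45 ± 0.39, adjusted p = 1.2e-08). Ccl2 was at 1634, 1529.7, 1692 and 1805 against 93.8, 54.4, 79.9 and 130.3 CPM (log2 fold change 4.21 ± 0.36, adjusted p = 3.2e-07). Ccl7 was at 1161, 707, 903 and 1182 against 62.2, 25.6, 41.4 and 58.4 CPM (log2 fold change 4.40 ± 0.33, adjusted p = 8.3e-08). The lowest MC38 RT library was above the highest Panc02-SIY RT library for each, and with barcodes of 1 library only the log2 fold changes of Ccl12, Ccl2 and Ccl7 were 4.31, 2.52 and 2.83. Ccl8, which follows on the chromosome (chr11:82115185-82116799), overlapped between the lines, since MC38 RT library 1 held 37.3 CPM and the other 3 held 216 to 346, against 44.5 to 78.0 in Panc02-SIY RT (log2 fold change 1.94 ± 0.55, or -0.18 with barcodes of 1 library only). Ccl5, Ccl3 and Ccl4 were the lower members of the same list. Ccl5, which T cells and NK cells make in quantity, was at 1093, 831, 576 and 894 against 2189, 3728, 2119 and 1837 CPM (log2 fold change -1.54 ± 0.25, adjusted p = 9.4e-05). Ccl3 and Ccl4 differed less, with log2 fold changes of -0.70 ± 0.22 and -0.61 ± 0.20. Over the 10 monocyte and macrophage-attracting chemokines, 6 were higher and 3 lower, with a median of 1.22. Among all genes tested, 29.9% were higher and 28.6% lower. With barcodes of 1 library only, 3 of these chemokines were higher and 5 lower, with a median of -0.49.

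Other chemokines and their receptors were likewise split. Cxcl16, which binds CXCR6 on T cells, was at 798, 1039, 761 and 834 against 49.9, 91.8, 105 and 139 CPM (log2 fold change 3.15 ± 0.25), and Cxcl10, an interferon-induced ligand of CXCR3, at 1840.4, 1639, 1444 and 1189 against 471, 320.0, 272 and 510.5 CPM (1.96 ± 0.32). Cxcl9 did not pass (0.77 ± 0.57, adjusted p = 0.256). Of the receptors, Cxcr6 was itself lower in MC38 RT, at 29.5, 9.001, 34.8 and 28.2 against 154, 324, 208 and 150.3 CPM (-3.02 ± 0.38), opposite to its ligand. Ccr2, the receptor for Ccl2, Ccl7 and Ccl12, was at 440.1, 769.6, 827 and 705 against 293, 289.9, 284 and 158 CPM (1.42 ± 0.37), and Ccr1 at 544 to 768 against 98.8 to 165 CPM (2.30 ± 0.21). Of 16 receptors tested, 5 were higher and 6 lower, where 29.9% of all genes tested were higher and 28.6% lower. The calls of Cxcl10 and Ccr2 were lost with barcodes of 1 library only (0.81 and 0.62). Of the neutrophil chemokines, Cxcl3 had 5 UMIs in all MC38 RT libraries together and was at 30.1, 27.2, 13.1 and 7.86 CPM in Panc02-SIY RT (log2 fold change -5.84 ± 1.32, adjusted p = 0.00166). Cxcl5 had no UMI in MC38 RT and 484 UMIs in Panc02-SIY RT, at least 38.2-fold lower against a floor of 3 UMIs over the group. Pf4, platelet factor 4, was higher in MC38 RT (91.7, 90.01, 92.7 and 304 against 14.3, 18.6, 15.9 and 14.4 CPM, 3.22 ± 0.37), with library 4 far above the other 3. Ccl17, a dendritic cell chemokine, was at 119.7, 8.59, 165 and 71.1 against 0, 4.86, 11.8 and 2.0 CPM (4.21 ± 0.98), and the ranges overlapped because of MC38 RT library 2. Ccl17 did not pass with barcodes of 1 library only (2.26), nor did Cxcl3.

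Most interferon-stimulated genes were higher in MC38 RT, while a small group of them was lower. Type I interferons act through STAT and IRF factors, which bind a repeated GAAA element in the promoters of such genes, and many of the products block viruses or sense nucleic acids. Of 72 genes tested, 53 were higher and 7 lower, a median log2 fold change of 1.17 against 0.0042 over all genes. Among all genes tested, 29.9% were higher and 28.6% lower. The largest was Phf11d, at 91.0, 185, 126 and 139 against 10.9, 10.8, 10.1 and 24.7 CPM (log2 fold change 3.23 ± 0.37, adjusted p = 4.8e-06). Ms4a4c, a membrane protein of monocytes, was at 743, 1174, 876 and 973 against 141, 98.1, 103 and 124 CPM (log2 fold change 3.02 ± 0.18, adjusted p = 5.5e-09), and Ifitm3, which blocks virus entry and was the most abundant member, at 2505, 3789, 2800.4 and 3065 against 810.0, 848, 651 and 773 CPM (log2 fold change 1.98 ± 0.13). Irf7, the factor that amplifies the interferon response, was at 557, 801, 534 and 643 against 109, 82.8, 81.9 and 130.1 CPM (log2 fold change 2.65 ± 0.17, adjusted p = 8.8e-09). Neither line overlapped the other at these genes. With barcodes of 1 library only, 39 of 72 were higher and 9 lower, with a median of 0.78, Irf7 was at 1.48, and the call of Ifitm3 was lost (0.08).

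Among the 7 lower members were Irgm2 (-0.94 ± 0.20), Gbp4 (-0.83 ± 0.32), Nlrc5 (-0.83 ± 0.15), Gbp5 (-0.75 ± 0.26), Irf1 (-0.59 ± 0.21) and Gbp7 (-0.53 ± 0.16), all as log2 fold changes, and they are named because they were few, after their values were seen. Gbp4, Gbp5 and Gbp7 encode guanylate-binding proteins and Irgm2 an immunity-related GTPase, which act on microbes inside cells. Irf1 is a factor strongly induced by interferon gamma and Nlrc5 drives MHC class I genes. Irf1 was at 401, 212, 224 and 199 CPM in MC38 RT and 398, 356, 354 and 436 in Panc02-SIY RT. MC38 RT library 1 reached into the Panc02-SIY RT range and the other 3 did not. Gbp4 showed the same library higher than the rest, at 232, 103, 94.6 and 86.0 against 177, 220.1, 205 and 288 CPM, and its call was lost without MC38 RT library 4 (-0.67). The log2 fold changes of these 6 were negative with barcodes of 1 library only, from -1.19 for Irgm2 to -0.06 for Nlrc5, but the calls of Nlrc5 and Gbp4 (-0.42) were lost there and with thinned barcodes (-0.27 and -0.55). Ifng, the interferon gamma gene itself, was lower in MC38 RT (log2 fold change -1.55 ± 0.56, adjusted p = 0.0282), at 198, 32.3, 65.04 and 62.3 against 195, 403, 213 and 185 CPM. Its libraries overlapped, with MC38 RT library 1 inside the Panc02-SIY RT range. The receptor subunits differed in direction: Ifngr2 (1.88 ± 0.13), Ifnar2 (1.45 ± 0.08) and Ifnar1 (0.72 ± 0.10) were higher, and Ifngr1 was lower (-0.66 ± 0.13), though Ifnar2 and Ifngr1 did not pass with barcodes of 1 library only (0.20 and -0.34). Ifnb1, the interferon beta gene, had 1 UMI in all MC38 RT libraries together and 12 in Panc02-SIY RT and was not tested.

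**Figure D3:**
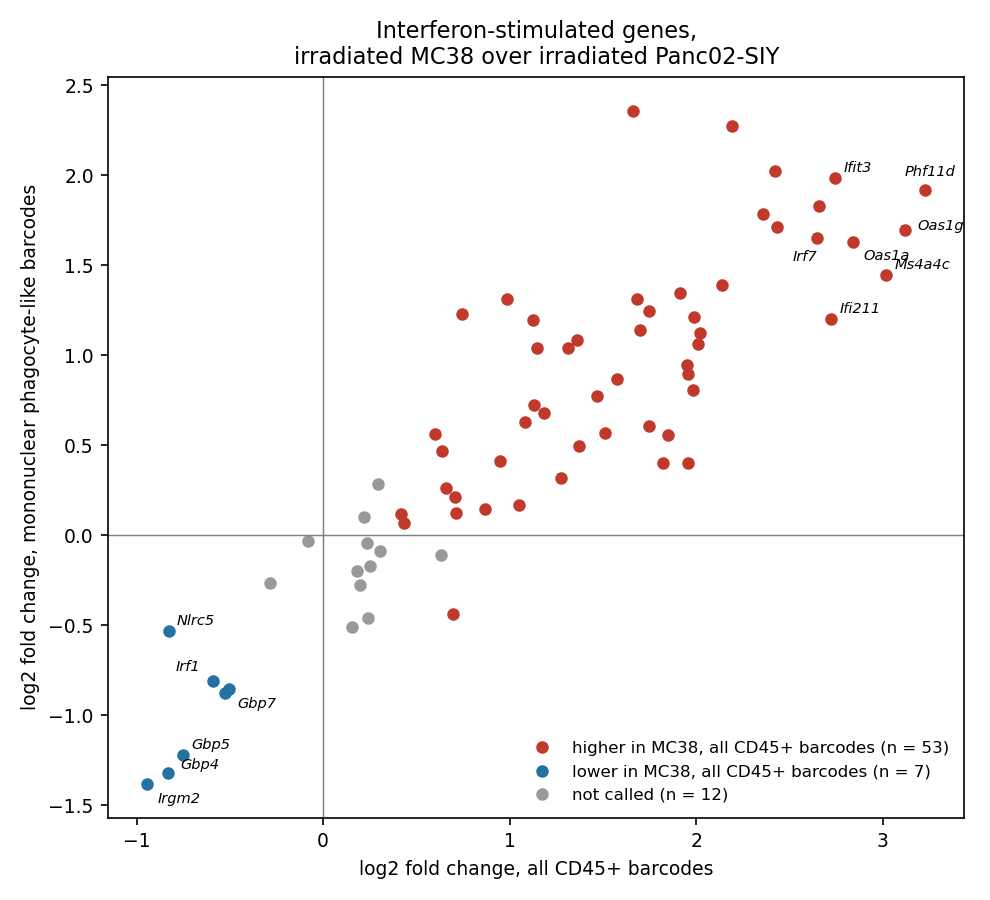
Log2 fold change of each interferon-stimulated gene, irradiated MC38 over irradiated Panc02-SIY, over all CD45+ barcodes (x axis) and within mononuclear phagocyte-like barcodes (y axis). Each point is 1 gene, colored by its call over all CD45+ barcodes; the 7 genes lower over all barcodes lie below 0 on both axes.

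The promoters of 4 strongly raised members are printed to show the element that such genes carry. They are the 250 bases before the RefSeq start site on assembly GRCm38.p6 (mm10), written 5′ to 3′ on the strand of the gene, and capitals mark the motif searched, GAAA and GAAA with any 2 bases between them, or its reverse complement, TTTC and TTTC with any 2 bases between them. Oas1g (31.1, 54.8, 40.0 and 48.5 against 5.43, 3.90, 3.54 and 7.19 CPM, log2 fold change 3.12 ± 0.31) and Oas1a (124, 196, 154 and 152 against 22.4, 17.1, 20.3 and 27.4 CPM, 2.84 ± 0.16) encode 2′-5′ oligoadenylate synthetases, which activate RNase L, and as near copies of each other may share reads. The call of Oas1g was lost with barcodes of 1 library only (1.38). Ifit3 (189.7, 379.7, 274 and 323 against 49.7, 35.6, 34.5 and 54.9 CPM, 2.75 ± 0.26) takes part in the response to viral RNA, and Ifi211 (492, 652, 493 and 486 against 104, 69.9, 69.4 and 78.5 CPM, 2.72 ± 0.18) belongs to the family of DNA-binding PYHIN proteins.
Oas1g, chr5:120887614-120887863, minus strand: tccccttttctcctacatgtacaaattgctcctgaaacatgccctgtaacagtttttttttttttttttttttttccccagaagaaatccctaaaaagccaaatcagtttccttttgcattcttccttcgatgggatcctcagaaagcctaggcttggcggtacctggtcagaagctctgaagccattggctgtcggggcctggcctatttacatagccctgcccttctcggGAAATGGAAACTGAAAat
Oas1a, chr5:120907526-120907775, minus strand: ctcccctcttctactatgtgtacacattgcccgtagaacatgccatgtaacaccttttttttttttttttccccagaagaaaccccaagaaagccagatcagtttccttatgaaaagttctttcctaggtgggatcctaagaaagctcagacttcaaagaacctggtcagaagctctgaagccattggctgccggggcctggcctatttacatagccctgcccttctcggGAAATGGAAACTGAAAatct
Ifit3, chr19:34583279-34583528, plus strand: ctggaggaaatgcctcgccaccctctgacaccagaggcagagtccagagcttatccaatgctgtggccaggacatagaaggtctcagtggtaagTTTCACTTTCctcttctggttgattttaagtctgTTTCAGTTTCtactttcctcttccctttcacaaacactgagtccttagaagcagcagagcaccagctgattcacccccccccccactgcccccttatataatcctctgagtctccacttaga
Ifi211, chr1:173913047-173913296, minus strand: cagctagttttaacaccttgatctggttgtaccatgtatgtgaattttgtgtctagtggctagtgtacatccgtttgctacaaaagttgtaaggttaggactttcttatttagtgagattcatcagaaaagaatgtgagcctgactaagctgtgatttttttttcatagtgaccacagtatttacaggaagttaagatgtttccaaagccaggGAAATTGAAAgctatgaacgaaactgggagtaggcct
In Oas1g and Oas1a, 2 overlapping matches end just before the start site, with the same letters in both. Searched on both strands from 250 bases before to 50 after the start, the motif stood in 24 of the 43 raised interferon-stimulated genes with a promoter in the RefSeq table (55.8%) and in 10 of 14 members that were not raised (71.4%), against 1079 of all 27025 promoters of that length (3.99%). The share was lower among the raised members than among the others, a difference that was not tested.

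Antigen presentation, complement and Fc receptor genes were mostly higher in MC38 RT. Among all genes tested, 29.9% were higher and 28.6% lower. MHC class II genes, whose products present peptides to CD4 T cells, had 12 of 13 tested members higher and 0 lower (0 and 0), with a median log2 fold change of 2.19. Cd74, the invariant chain and the most abundant, was at 16924, 22749.6, 19136 and 19521 against 2575, 3334, 3607 and 5068 CPM (log2 fold change 2.43 ± 0.25, adjusted p = 1.1e-06), and H2-Eb1 at 5034, 7331, 6203 and 6336 against 680.1, 1014, 984 and 1579 CPM (log2 fold change 2.55 ± 0.28). MHC class I genes moved less, with 11 of 18 tested members higher and 2 lower, with a median log2 fold change of 0.47, led by H2-D1 (3264 to 3936 against 1338 to 1743 CPM, 1.21 ± 0.09). From barcodes of 1 library only, class II had 2 higher and 0 lower (0 at an unadjusted p under 0.05) of 12, with a median of 0.66, and class I had 4 higher and 6 lower of 18, with a median of -0.042. Of all 11472 genes tested there, 1513 were higher and 1794 lower. Complement genes had 9 of 12 tested members higher and 1 lower, with a median log2 fold change of 1.68. Cfb, factor B of the alternative pathway, was at 404, 504, 301 and 291 against 16.1, 10.97, 11.4 and 18.3 CPM (log2 fold change 4.71 ± 0.30, adjusted p = 1.6e-08), and C1qb, a subunit of C1q, at 2759, 4181, 2899 and 3835 against 256, 494, 406 and 1153 CPM (log2 fold change 2.56 ± 0.54). Cd55, which protects cells from complement, was lower (-2.16 ± 0.56). The calls of Cd74, H2-Eb1, C1qb and Cd55 were lost with barcodes of 1 library only (0.67, 0.92, 0.56 and -0.20). Of 10 Fc receptor genes, 6 were higher and 3 lower (median 1.00, or -0.054 with barcodes of 1 library only). Fcrl5 had no UMI in MC38 RT and 2722 in Panc02-SIY RT, at least 215-fold lower, and Fcer1a, the IgE receptor chain of mast cells and basophils, had 3 UMIs against 1262 (99.7-fold, 95% counting interval 34.0 to 484).

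Arg1, Slc7a2 and Ass1 of arginine metabolism and the interleukin-1 ligands Il1a and Il1b were higher in MC38 RT, while 4 receptor chains of the interleukin-1 family were lower. Arg1, arginase 1, which breaks down the arginine that T cells need, was at 1599, 1039.6, 1839 and 1085 against 31.6, 31.0, 14.9 and 26.7 CPM (log2 fold change 5.75 ± 0.34, adjusted p = 9.6e-09). Slc7a2, an arginine transporter, was at 69.98, 33.1, 49.4 and 34.3 against 4.77, 1.84, 2.93 and 3.59 CPM (log2 fold change 3.83 ± 0.33), and Ass1, an enzyme on the path from citrulline to arginine, at 355, 351, 304 and 346 against 58.6, 34.5, 37.2 and 32.7 CPM (3.07 ± 0.35). Using barcodes of 1 library only, Arg1, Slc7a2 and Ass1 were at 3.97, 3.38 and 1.42. Over all kept CD45+ barcodes, 29.9% of all genes tested were higher and 28.6% lower. The whole list of arginine, tryptophan and suppressive mediator genes had 8 of 14 tested members higher and 2 lower, with a median log2 fold change of 1.38, and its lower members were Ptgs2, cyclooxygenase 2 (-0.82 ± 0.20), and the cystine transporter gene Slc7a11 (-0.89 ± 0.41). Both calls were lost with barcodes of 1 library only (-0.68 and -0.66), and that of Slc7a11 also without MC38 RT library 2, 3 or 4 or Panc02-SIY RT library 1 or 3 (-0.90 to -0.73). Nos2, the inducible nitric oxide synthase, rested on few UMIs and mainly on MC38 RT library 1 (44.3, 2.45, 8.28 and 3.48 against 0.823, 0.736, 0.953 and 2.75 CPM). Il1b, the most abundant member of the interleukin-1 family, was at 3668, 3806, 3471 and 3496 against 1426, 1228, 1434 and 1229 CPM (log2 fold change 1.44 ± 0.12, adjusted p = 1.1e-07), and Il1a at 125, 72.0, 91.5 and 69.4 against 20.6, 11.6, 14.4 and 8.30 CPM (log2 fold change 2.73 ± 0.25). The lower members of this list were all receptor chains, Il1rl1 (-2.87 ± 0.32), Il18rap (-2.34 ± 0.36), Il18r1 (-2.17 ± 0.38) and Il1rap (-0.81 ± 0.24). The calls of Il1b, Il18rap and Il18r1 were lost with barcodes of 1 library only (0.33, -0.51 and -0.43), as were those of Nos2 (1.33) and Spp1 (1.69). That of Il1b was also lost with each barcode thinned to 1000 UMIs (0.19). Spp1, which encodes osteopontin, was at 265, 367, 515 and 951 against 158, 56.6, 39.1 and 111 CPM (log2 fold change 2.54 ± 0.61, adjusted p = 0.00248), with non-overlapping but widely spread libraries. Il17a was not tested, with 0 to 1 UMI per library in MC38 RT and 24, 9, 0 and 7 UMIs in Panc02-SIY RT. Spp1, Irf7, Il1b, Ifng and Il17a form a list of candidate upstream mediators taken from the study, which chose them on these samples, so their direction is not independent evidence. The study found Ifng and Il17a expressed less in MC38 tumors and proposes that these genes are not mediators. Of the 4 tested members of the list, 3 were higher and 1 lower.

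Cytokine genes were more often lower than higher, and 9 of 14 checkpoint and costimulatory ligands were higher. Of 22 cytokine genes tested, 3 were higher and 9 lower (median -0.70). Over all genes tested, 29.9% were higher and 28.6% lower, and the part of cytokine genes called was near the 58.5% of all genes. Ltb, lymphotoxin beta, was at 81.6, 31.5, 57.2 and 53.8 against 348, 363, 318 and 241 CPM (log2 fold change -2.53 ± 0.26), and Csf1, the growth factor of macrophages, at 17.1, 11.5, 19.4 and 15.9 against 121, 155, 88.9 and 67.8 CPM (-2.75 ± 0.31). Osm, oncostatin M, was higher (285 to 431 against 90.7 to 148 CPM, 1.59 ± 0.33). Of 14 checkpoint and costimulatory ligands, 9 were higher and 0 lower (0 and 1), with Cd86 (299.9 to 359 against 55.5 to 79.0 CPM, 2.29 ± 0.12) and Cd40 (79.9 to 138 against 23.05 to 31.8 CPM, 1.99 ± 0.22) the largest, although the call of Cd40 was lost with barcodes of 1 library only (0.59). Cd274, which encodes PD-L1, did not pass (-0.23 ± 0.29, adjusted p = 0.511), with MC38 RT libraries at 369, 167, 158 and 116.6 CPM around the Panc02-SIY RT libraries at 224, 200.3, 232 and 276. Without MC38 RT library 1 its log2 fold change was -0.67 and was called, as it was with all barcodes (-0.52) and with thinned barcodes (-1.005).

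Mast cell genes and most neutrophil markers were lower in MC38 RT. Among all genes tested, 28.6% were lower and 29.9% higher. Mast cell and basophil markers had 0 of 7 tested members higher (0 and 0) and 6 lower, with a median log2 fold change of -6.38, and neutrophil markers had 1 of 9 tested members higher and 8 lower, with a median log2 fold change of -4.10. The 9 neutrophil markers summed to 151 to 209.7 CPM in MC38 RT and 1310.4 to 3176 in Panc02-SIY RT. Trem1, an activating receptor of monocytes and neutrophils, was the higher member (83.2, 66.3, 97.2 and 88.5 against 48.2, 40.8, 44.9 and 20.3 CPM, 1.14 ± 0.26), but its call was lost with barcodes of 1 library only (0.44) and its sign turned with thinned barcodes (-0.40). Mcpt1, Mcpt2 and Mcpt4 encode mast cell proteases and lie together on chromosome 14 (chr14:56017971-56020384, chr14:56042041-56044642 and chr14:56059629-56062313). Mcpt1 was at 0.778, 0, 1.42 and 0.557 CPM in MC38 RT (11 UMIs in all) and at 629, 426, 517 and 736 in Panc02-SIY RT (log2 fold change -9.61 ± 1.13, adjusted p = 6.8e-06). Mcpt4 was at 0, 0, 1.42 and 0.697 against 189, 105, 141 and 154 CPM (log2 fold change -7.65 ± 1.02, adjusted p = 2.3e-05), and Mcpt2 at 0, 1.23, 1.66 and 5.71 against 449.5, 269.6, 257 and 395 CPM (log2 fold change -6.79 ± 0.81). Cpa3, mast cell carboxypeptidase, was at 0, 0.409, 0.236 and 0.418 against 74.9, 53.01, 63.3 and 89.0 CPM (-7.69 ± 1.22), and the tryptase Tpsb2 at 0, 0.409, 1.66 and 2.09 against 124, 69.7, 99.8 and 137 CPM (-6.19 ± 0.97). All 4 Panc02-SIY RT libraries held each of these 5 genes at 53.01 CPM or more, with 0.671% of barcodes mast cell and basophil-like. S100a8 and S100a9, which form calprotectin, the main cytosolic protein of neutrophils, lie at chr3:90668978-90670035 and chr3:90692632-90695721. S100a8 was at 6.22, 2.45, 5.20 and 28.3 against 1305, 1094, 756 and 457 CPM (log2 fold change -6.15 ± 0.80, adjusted p = 1.8e-05), and S100a9 at 0, 1.23, 2.84 and 15.5 against 1013, 915, 509 and 442 CPM (log2 fold change -6.70 ± 0.78, adjusted p = 6.5e-06). Library 4 was the highest MC38 RT library for both and still far below the lowest Panc02-SIY RT library. Retnlg, another neutrophil gene, had 3 UMIs in MC38 RT and 3121 in Panc02-SIY RT (247-fold, 95% counting interval 84.3 to 1196). Mmp9, a gelatinase stored in neutrophil granules, was at 6.22, 0.409, 4.97 and 1.95 against 80.7, 67.4, 93.4 and 23.8 CPM (-4.46 ± 0.60). Cp, which encodes the copper-binding ferroxidase ceruloplasmin, was at 6.22, 3.27, 4.26 and 4.46 against 114, 62.8, 53.5 and 199 CPM (-4.62 ± 0.69). Cp was a leading gene of the tumor, stromal and endothelial-like cluster 28, which held 0 MC38 RT and 17 Panc02-SIY RT barcodes, and its call was lost with barcodes of 1 library only (-5.17). With barcodes of 1 library only, Mcpt1, S100a8 and Mmp9 were at -8.41, -4.33 and -2.46.

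In the T cell and NK cell lists most members were called lower in MC38 RT, from 6 of 11 exhaustion genes to 10 of 10 T cell markers. Of all genes tested, 28.6% were lower and 29.9% higher, and 58.5% were called in either direction. The part of exhaustion genes called was near that 58.5%. All 10 T cell markers were lower (median -2.34), as were 6 of 8 NK cell markers and all 7 B cell markers. Cd8a was at 109.6, 13.9, 34.1 and 37.1 against 162, 353, 323 and 368 CPM (log2 fold change -2.75 ± 0.51, adjusted p = 0.00035). Granule and cytotoxicity genes had 1 of 17 tested members higher and 12 lower, with a median log2 fold change of -1.95. Prf1, perforin, was at 44.3, 55.2, 51.6 and 41.4 against 361, 289, 247 and 259 CPM (log2 fold change -2.59 ± 0.46, adjusted p = 0.00025). Gzma, granzyme A, was at 208, 288, 306 and 177 against 1959, 2244, 1233 and 938 CPM (log2 fold change -2.70 ± 0.63, adjusted p = 0.0022). Srgn, the proteoglycan serglycin that macrophages also make, was the 1 higher member (2093 to 3179 against 1261 to 1702 CPM, 0.86 ± 0.14, or -0.49 with barcodes of 1 library only). Inhibitory receptors and exhaustion genes had 1 of 11 tested members higher and 6 lower, with a median log2 fold change of -1.44. Tox, a factor of exhausted T cells, was at 12.4, 5.73, 8.51 and 5.99 against 71.9, 65.6, 71.1 and 73.2 CPM (log2 fold change -3.23 ± 0.21, adjusted p = 8.9e-09), and Pdcd1, which encodes PD-1, at 16.3, 1.23, 8.99 and 12.5 against 27.7, 60.4, 61.5 and 70.3 CPM (-2.53 ± 0.38). Regulatory T cell genes had 1 of 11 tested members higher and 7 lower, with a median log2 fold change of -1.18, where the 1 higher member was Capg, an actin-capping protein also expressed in macrophages (2.39 ± 0.19). Naive and memory T cell genes had 0 of 11 tested members higher (0 and 0) and 7 lower, with a median log2 fold change of -1.80, among them Tcf7, the factor TCF1 of naive and stem-like T cells (2.86 to 11.01 against 33.1 to 74.2 CPM, -2.87 ± 0.44). From barcodes of 1 library only, 7 of 10 T cell markers were lower (median -1.47), granule genes had 0 higher (0 at an unadjusted p under 0.05) and 10 lower of 17, with a median of -1.05, regulatory T cell genes had 1 higher and 0 lower (0 at an unadjusted p under 0.05) of 11, with a median of 0.42, and exhaustion genes had 1 higher and 4 lower of 11, with a median of -0.10.

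Lists of the radiation response, the cell cycle and glycolysis differed in how many members were called. For p53 targets the 20 called of 31 were near the 58.5% of all genes, and for G2 and mitosis genes the 3 of 27 were below it. The p53 target genes had 13 of 31 tested members higher and 7 lower, with a median log2 fold change of 0.23. All 32 members of the list summed to a median of 5574.5 CPM in MC38 RT and 2625.7 in Panc02-SIY RT. Their sum also differed without radiation, with a median of 2527 CPM in MC38 NT and 1376 in Panc02-SIY NT. Cdkn1a, the cell cycle inhibitor p21, was at 1433, 1718, 1554 and 1504 against 397, 309, 375 and 507 CPM (log2 fold change 1.97 ± 0.15, adjusted p = 4.3e-08). Mdm2, which degrades p53, was at 192, 167, 142 and 137 against 88.2, 85.1, 82.4 and 111 CPM (log2 fold change 0.78 ± 0.13, adjusted p = 0.00011), and Gdf15, a secreted stress factor, at 3.11, 18.4, 26.7 and 21.7 against 2.80, 2.72, 4.49 and 3.02 CPM (log2 fold change 2.49 ± 0.50, adjusted p = 0.00051) with MC38 RT library 1 at the Panc02-SIY RT level. Using barcodes of 1 library only, Cdkn1a, Mdm2 and Gdf15 were at 1.11, 0.59 and -0.41. The lower members were led by Perp (-3.23 ± 0.46) and by Ddb2, which recognises DNA damage (-1.94 ± 0.25). S phase genes had 0 of 25 tested members higher (0 and 1) and 15 lower, with a median log2 fold change of -0.83, such as Mcm5, a subunit of the replicative helicase (11.05 to 18.0 against 25.0 to 46.2 CPM, -1.40 ± 0.24). G2 and mitosis genes had 0 of 27 tested members higher (0 and 0) and 3 lower, with a median log2 fold change of -0.54, with the kinesin Kif23 the largest (-1.47 ± 0.39). Glycolysis and hypoxia genes had 20 of 27 tested members higher and 2 lower, with a median log2 fold change of 1.37. Gapdh was at 1929, 2358, 2295 and 2480.3 against 424, 669.7, 473 and 781 CPM (log2 fold change 1.95 ± 0.20, adjusted p = 9.1e-07) and Vegfa, the growth factor of blood vessels, at 302, 226, 211 and 242 against 62.7, 37.6, 46.4 and 71.3 CPM (2.16 ± 0.23), whereas Slc2a3, a glucose transporter, was lower (-2.17 ± 0.35). Of 17 dissociation and immediate early genes, which rise when tissue is digested, 10 were higher and 1 lower (median 0.65). Their part in the other differences was not tested. With library size alone the p53 median was -0.15. The calls of Perp, Ddb2, Kif23, Gapdh and Slc2a3 were lost with barcodes of 1 library only (-1.18, -0.64, -0.26, 0.46 and -0.49). With barcodes of 1 library only, p53 targets had 7 higher and 4 lower of 31, with a median of 0.13, G2 and mitosis genes had 0 higher (0 at an unadjusted p under 0.05) and 1 lower of 27, with a median of 0.28, and glycolysis genes had 12 higher and 2 lower of 26, with a median of 0.43.

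**Figure D4:**
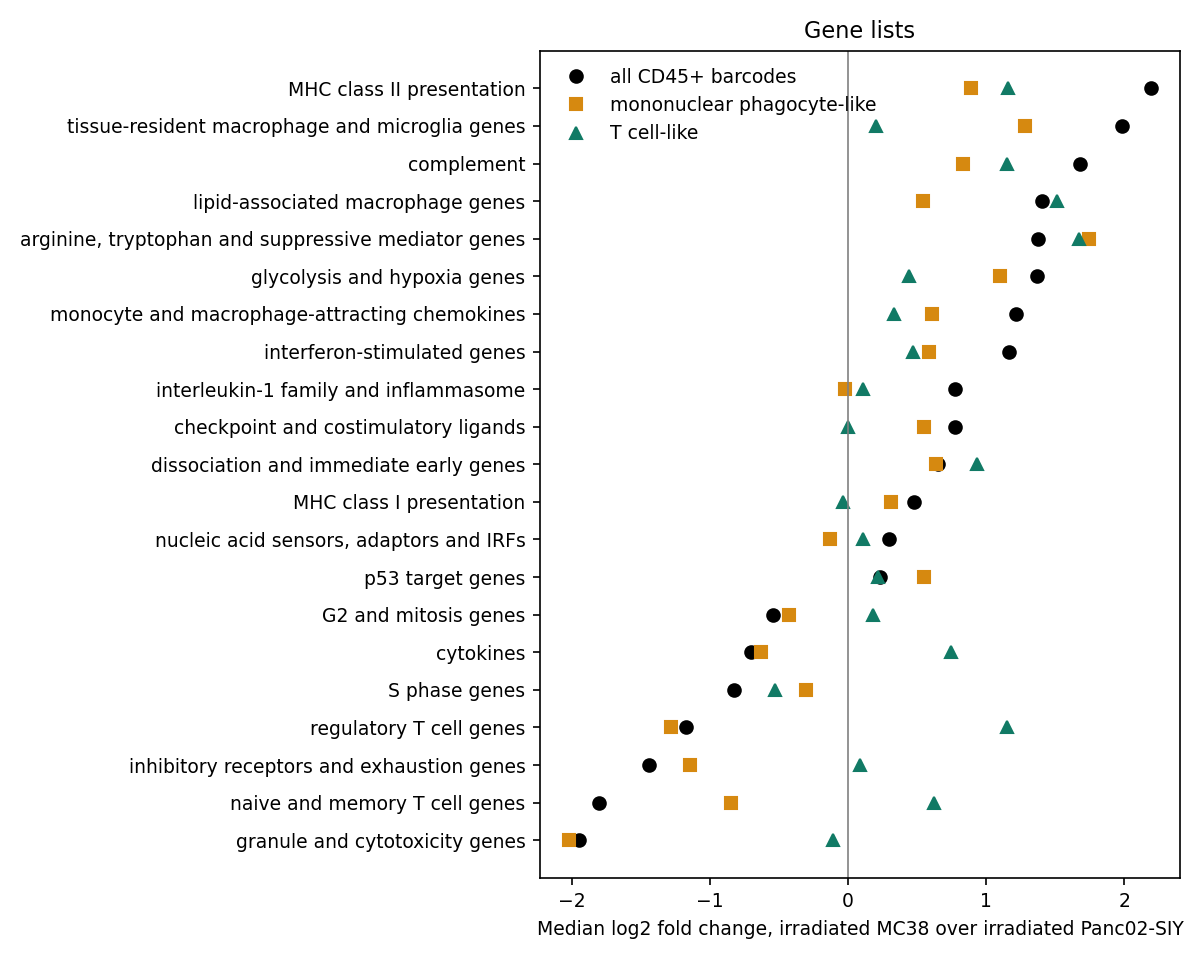
Median log2 fold change, irradiated MC38 over irradiated Panc02-SIY (x axis), of selected gene lists (y axis). Values are over all CD45+ barcodes, within mononuclear phagocyte-like barcodes and within T cell-like barcodes. The cell type marker lists and some other lists are not shown. Each symbol is the median of the tested members of 1 list; MHC class II presentation lies at 2.19 over all barcodes and at 0.89 within phagocyte-like barcodes.

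The lines also differed within mononuclear phagocyte-like barcodes. The class held 807 barcodes in MC38 RT and 1216 in Panc02-SIY RT, and the lines drew on different clusters of it: most MC38 RT barcodes were in clusters 5, 13 and 25 (478, 233 and 74 barcodes) and most Panc02-SIY RT barcodes in clusters 9, 6 and 23 (654, 463 and 53). Panc02-SIY RT had 35, 8 and 3 barcodes in clusters 5, 13 and 25, and MC38 RT 22, 0 and 0 in clusters 9, 6 and 23. The leading genes of cluster 5 included Arg1, Ccl12, Trem2 and Fcrls, and those of cluster 9 Chil3 and F13a1. Those of clusters 6 and 23 included Fcrl5, Cd300e and Klra17. In sums over the class, the mix of these clusters and the level per cell cannot be told apart. Of 10475 genes tested, 4830 were called (46.1%), 2299 higher (21.9%) and 2531 lower (24.2%), and at 3948 (37.7%) the libraries did not overlap. Ccl12 was at 1475, 1002, 926 and 1143 CPM in the phagocyte-like barcodes of MC38 RT and 21.6, 23.96, 30.3 and 45.2 in those of Panc02-SIY RT (log2 fold change 5.16 ± 0.40, adjusted p = 5.7e-07). Arg1 was at 2020.0, 1107, 2108 and 1207 against 156, 146, 55.3 and 60.1 CPM (log2 fold change 3.99 ± 0.41, adjusted p = 6.1e-06), and Trem2 at 343, 421, 382 and 447 against 28.8, 37.2, 21.3 and 23.4 CPM (log2 fold change 3.88 ± 0.20, adjusted p = 1.4e-09). Tmem119 (5.31 ± 0.41), Fcrls (5.19 ± 1.01), Pdpn (5.36 ± 0.48) and AA467197, which encodes a small mitochondrial protein (1899, 1547, 1552 and 1196 against 193, 47.5, 64.3 and 55.5 CPM, 4.18 ± 0.56), were the other leading higher genes. In the opposite direction, Adamdec1, a metalloprotease of gut macrophages, had 3 UMIs in MC38 RT phagocyte-like barcodes against 71.0, 146, 112 and 185 CPM in Panc02-SIY RT. Fcrl5 had none, against 52.1, 92.5, 61.9 and 196 CPM. Cd300e, an activating receptor of monocytes (0, 0.879, 1.09 and 1.56 against 121, 149.6, 84.8 and 240.2 CPM, -6.97 ± 0.59), Klra17 (-6.33 ± 0.74) and Xcr1, the chemokine receptor of type 1 dendritic cells (0.990, 1.32, 1.09 and 1.40 against 62.9, 97.3, 75.2 and 185 CPM, -6.39 ± 0.71), followed. No MC38 RT library held more than 1.56 CPM of Cd300e or 1.40 CPM of Xcr1 in this class.

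The gene lists were also counted within the phagocyte-like class. Interferon-stimulated genes had 40 of 72 tested members higher and 7 lower, with a median log2 fold change of 0.59, where all genes tested had a median of -0.032. Usp18, an inhibitor of interferon signaling, was at 119.8, 171, 119.9 and 129.8 against 49.4, 31.3, 28.6 and 29.8 CPM (log2 fold change 2.03 ± 0.27, adjusted p = 2.7e-05), and Irf7 at 679, 826, 551 and 666 against 287, 184, 155 and 243 CPM (1.65 ± 0.17). The same 7 members were the lower ones, from Nlrc5 (-0.53 ± 0.20) to Irgm2 (-1.38 ± 0.23). The call of Nlrc5 was lost without MC38 RT library 3 (-0.46) or 4 (-0.43), and with barcodes of 1 library only it was 0.45. MHC class II genes had 10 of 12 tested members higher and 1 lower, with a median log2 fold change of 0.89, with Cd74 at 19496, 22622, 19093 and 19782 against 7009, 11560.3, 9320.2 and 11734 CPM (1.03 ± 0.17). Glycolysis genes had 18 of 27 tested members higher and 1 lower, with a median log2 fold change of 1.10, and p53 targets 15 of 27 tested members higher and 3 lower, with a median log2 fold change of 0.55, among them Phlda3 (49.5, 112, 89.4 and 73.0 against 17.1, 15.5, 16.4 and 18.6 CPM, 2.27 ± 0.21). Genes of nucleic acid sensors, their adaptors and IRFs had 3 of 26 tested members higher and 7 lower in the class, with a median log2 fold change of -0.13. Over all classes they had 11 of 27 tested members higher and 3 lower, with a median log2 fold change of 0.30. Of all genes tested, 21.9% were higher and 24.2% lower in the class, and 29.9% were higher and 28.6% lower over all classes. Lyz2, lysozyme 2, did not pass within the class (0.82 ± 0.51, adjusted p = 0.21), but was called without Panc02-SIY RT library 1 (1.21). From barcodes of 1 library only, 1842 of 8040 genes were called, 849 higher and 993 lower. There interferon-stimulated genes had 25 higher and 10 lower of 71, with a median of 0.50, and glycolysis genes 10 higher and 0 lower (0 at an unadjusted p under 0.05) of 24, with a median of 0.52, but class II genes had 0 higher (0 at an unadjusted p under 0.05) and 0 lower (0 at an unadjusted p under 0.05) of 10, with a median of -0.16, with Cd74 at -0.02. Markers of other cells moved with the line in this class: T cell markers summed to 18.7 to 90.9 CPM in MC38 RT and 110 to 296 in Panc02-SIY RT, and B cell markers to 20.8 to 66.0 against 171 to 373. Neutrophil markers summed to 120.4 to 164.9 against 245 to 395 CPM, with 6 of 8 tested lower and 1 higher, and of 7 conventional dendritic cell markers, Xcr1 among them, 4 were lower and 1 higher (median -1.62). Granule genes, of which 2 of 11 were higher and 8 lower in the class, moved with them, and the part of such RNA or cells in these results was not tested.

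Fewer genes were called within T cell-like barcodes, which held 662734 UMIs in MC38 RT against 14970856 in the phagocyte-like class. The part of this lower depth in the number of calls was not tested. The class held 96 barcodes in MC38 RT and 2377 in Panc02-SIY RT, again from different clusters. It made up 10.2% of the 147 barcodes of MC38 RT library 1 and 5.21% of the 192 of library 2. Low CPM values of these libraries in the class therefore rest on few barcodes and few UMIs. Cluster 12, with Foxp3, Il2ra and Tnfrsf4 among its leading genes, held 40 MC38 RT and 220 Panc02-SIY RT barcodes. Cluster 11, with Csf2 and Cd4 among them, held 28 and 296. Cluster 0, with Cd8a, Cd8b1 and Ccl5 among them, held 8 and 1388. In sums over the class, the mix of these clusters and the level per cell cannot be told apart. Of 7922 genes tested, 1000 were called (12.6%), 441 higher (5.57%) and 559 lower (7.06%); with DESeq2 the calls were 699 higher and 458 lower, and with edgeR on DESeq2's scaling 518 and 416, so the balance depends on the scaling. Ccl5 was at 488, 61.8, 287 and 419 against 2157, 6438, 4208 and 4452 CPM (log2 fold change -3.67 ± 0.40, adjusted p = 6.5e-05). Tox was at 86.2, 82.3, 68.9 and 50.7 against 256, 169, 198 and 243 CPM (log2 fold change -1.71 ± 0.26, adjusted p = 0.00015). Tcrg-C2, a constant segment of the gamma T cell receptor (-2.89 ± 0.97), Setbp1 (-2.48 ± 0.69) and Fam78a (-1.70 ± 0.40) completed the 5 largest falls. The call of Tcrg-C2 was lost without any 1 of the 4 MC38 RT libraries or Panc02-SIY RT library 4 (-3.17 to -2.65), and that of Setbp1 without MC38 RT library 3 (-2.01) or 4 (-2.71). Lag3 and Pdcd1, lower over all barcodes, did not pass here: Lag3 was at 747, 474, 729 and 574 against 438, 656, 677 and 647 CPM (log2 fold change 0.08 ± 0.20) and Pdcd1 at 134, 61.8, 155 and 241 against 124, 177, 207 and 249 CPM (-0.16 ± 0.27). Gzmb (-0.17 ± 0.48) and Prf1 (-0.82 ± 0.51) did not pass either, and granule genes had 1 of 16 tested members higher and 0 lower (1 and 1), with a median log2 fold change of -0.11. That member, Gzmc, was at 0, 0, 5.74 and 6642 against 9.19, 91.2, 79.7 and 29.0 CPM (log2 fold change 5.04 ± 1.71, adjusted p = 0.0958), so its call rests on MC38 RT library 4, without which the log2 fold change was -4.14. Its call was also lost without any 1 of the Panc02-SIY RT libraries (4.78 to 5.46). Regulatory T cell genes had 6 of 11 tested members higher and 0 lower (0 and 0), with a median log2 fold change of 1.15, where all genes tested had a median of -0.089. Among them were Il2ra, the high-affinity chain of the IL-2 receptor (728, 474, 838 and 390.1 against 319, 281, 261 and 192 CPM, 1.22 ± 0.31), and the costimulatory receptor Tnfrsf4 (785, 576, 867 and 450.4 against 361, 284, 281 and 172 CPM, 1.29 ± 0.40). The call of Il2ra was lost without MC38 RT library 3 (1.00), and that of Tnfrsf4 without MC38 RT library 1 (1.24) or 3 (1.13) or Panc02-SIY RT library 4 (1.19). Foxp3, the factor that defines regulatory T cells, did not pass (86.2, 0, 138 and 63.4 against 55.1, 31.4, 44.9 and 7.78 CPM, 1.38 ± 1.23).

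Macrophage genes were also among the differences within T cell-like barcodes. Ccl2 (20.6 to 143 against 1.47 to 2.59 CPM, 5.44 ± 0.50), Ccl7 (4.36 ± 0.53), AY036118 (4.37 ± 0.48), Ms4a4c (3.37 ± 0.31) and Slc24a5 (3.31 ± 0.41) were the 5 largest rises. Mononuclear phagocyte markers summed to 1872 to 2216 CPM in the T cell-like barcodes of MC38 RT and to 474 to 1104 in those of Panc02-SIY RT, while T cell markers summed to 5742 to 8145 and 6514 to 7879. Interferon-stimulated genes had 16 of 61 tested members higher and 1 lower, with a median log2 fold change of 0.47, and MHC class II genes 5 of 9 tested members higher and 0 lower (0 and 0), with a median log2 fold change of 1.16. These lists moved with the phagocyte markers in this class, and the part of macrophage RNA in them was not tested. Among all genes tested in the class, 5.57% were higher and 7.06% lower. A fit on barcodes of 1 library only was not run, since 2 MC38 RT libraries held 7 such T cell-like barcodes each.

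The same difference between the lines was measured without radiation, and most of it was there too. Untreated tumors were compared over other libraries than the irradiated tumors, in a fit that shares 1 estimate of the spread. Pairs of an MC38 NT and an MC38 RT library had a median of 964.5 strings in common, 83.2% of the smaller library. Each such string was kept once, in the MC38 library with the most UMIs. The 2 comparisons and the interaction may therefore not rest on separate cells. Of 12447 genes, 7610 were called between MC38 NT and Panc02-SIY NT (61.1%), 3622 higher in MC38 NT (29.1%) and 3988 lower (32%). Genes called in the same direction in both comparisons numbered 6191, which is 85.0% of the calls in irradiated and 81.4% of those in untreated tumors, and 9 were called in opposite directions. Interferon-stimulated genes had 47 higher and 9 lower in untreated tumors (median 1.18), and MHC class II genes 12 of 13 higher (median 2.18). The mononuclear phagocyte-like share was 62.5% ± 4.86 in MC38 NT and 7.92% ± 4.3 in Panc02-SIY NT. A test of the interaction asks directly whether the difference between the lines changed with radiation, and it called 43 genes (0.345%), 24 lower (0.193%) and 19 higher (0.153%). With DESeq2's scaling the split was 22 lower and 8 higher, and with library size alone 183 and 8. Using barcodes of 1 library only it called 0 genes in edgeR, with 748 genes at an unadjusted p under 0.05, and with all barcodes it called 334. Leaving out 1 of the 16 libraries at a time gave 3 genes (without MC38 RT library 3 or MC38 NT library 4) to 154 (without Panc02-SIY NT library 4). Of the 43, 33 were also called between the irradiated tumors, and 11 had a larger absolute difference in irradiated than in untreated tumors.

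Genes of myeloid cells made up the 5 largest negative interactions named, which mean a smaller excess in MC38 after radiation. Arg1 went from a log2 fold change of 7.92 in untreated to 5.75 in irradiated tumors (interaction -2.17 ± 0.43, adjusted p = 0.0776). Mrc1, the mannose receptor CD206, went from 2.57 to 1.01 (adjusted p = 0.0951), and in irradiated tumors it was at 86.3, 58.5, 93.2 and 103 against 42.8, 40.9, 42.7 and 43.4 CPM. Cysltr1, a leukotriene receptor, went from 3.42 to 2.16 (0.0128), the surface lectin Cd33 from 1.70 to 0.50 (0.0776) and Cd14, the co-receptor for lipopolysaccharide, from 4.31 to 3.14 (0.0776). For all 5 the difference was smaller in irradiated tumors, and between these the call of Cd33 was lost without Panc02-SIY RT library 2 (0.39) or 4 (0.30). In the positive direction, Mdm2 was the 1 named gene that was higher in irradiated MC38, its difference going from -0.16 to 0.78 (interaction 0.94 ± 0.19, adjusted p = 0.0776). Klrd1, the NK receptor chain CD94 (-2.87 to -1.61, 0.0951), the calcium pump Atp2b4 (-1.89 to -0.76, 0.0488), Sesn3 (-3.05 to -2.24, 0.0951) and Nr4a2, an early response factor (-0.93 to -0.18, 0.0776), had differences nearer 0 after radiation, and that of Nr4a2 in irradiated tumors was not called. The p53 targets Gdf15 and Phlda3 had differences of -0.30 and -0.30 in untreated and 2.49 and 1.45 in irradiated tumors, but their interactions did not pass (adjusted p = 0.162 and 0.207). With barcodes of 1 library only, the irradiated log2 fold changes of Arg1, Mrc1, Cysltr1, Cd33, Cd14 and Mdm2 were 3.97, 0.29, 0.95, -0.13, 2.12 and 0.59, with the calls of Mrc1 and Cd33 lost. Atp2b4 and Nr4a2 turned, to 0.57 and 0.63, both called, and were at 0.35 and 0.37 with thinned barcodes.

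**Figure D5:**
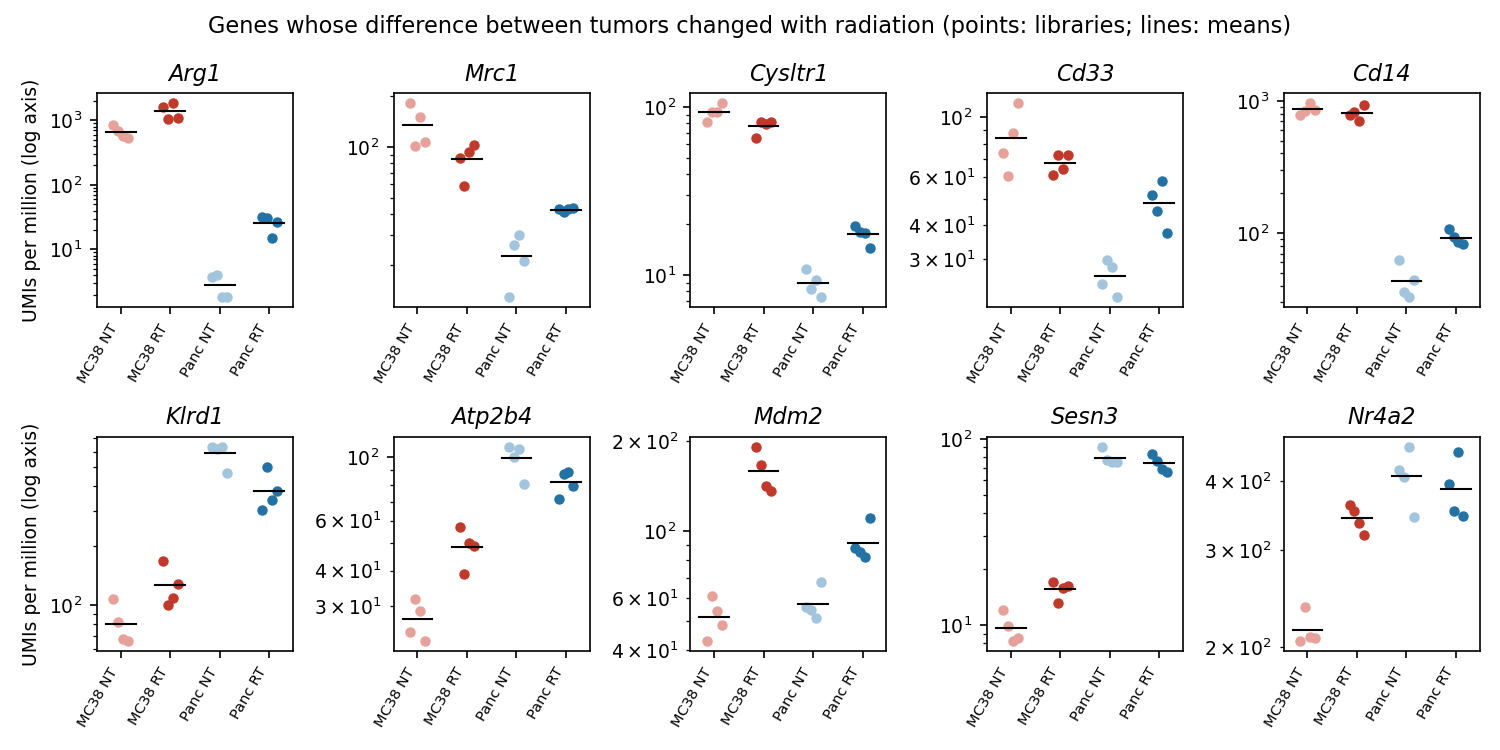
CPM (y axis, log scale, a scale of its own in each panel) of the 10 named interaction genes in untreated (NT) and irradiated (RT) MC38 and Panc02-SIY (Panc) tumors (x axis). Each point is 1 library and each line a group mean; Arg1 lies at 524 to 854 and 1039.6 to 1839 CPM in MC38 NT and RT and at 1.81 to 4.03 and 14.9 to 31.6 in Panc02-SIY NT and RT.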

How the data were processed

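Single-cell RNA libraries of live CD45+ cells were made with a 10x Genomics 3′ kit, and per the labels the authors used bcl2fastq 2.20.0 and Cell Ranger 3.1.0 with mm10. The deposited values are raw UMI counts per gene and barcode, in 1 matrix for each of 16 libraries with 31053 features. An aggregate of all libraries was not used here.

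From these counts, each barcode string was kept in the library of its tumor line with the most UMIs. Barcodes were clustered with scanpy 1.11.5 and leidenalg 0.10.2 (2000 variable genes, 30 principal components, 20 neighbors, resolution 1). A name required 3 or more raised markers of one class, and a larger part of its list raised than for any other class. Raised meant a log2 fold above 1 over the remaining clusters with 20 CPM added. A cluster stayed unnamed if its 10 leading genes held more markers of another class. It also stayed unnamed if those 10 held none of its own markers and its barcodes were shallow, at a median under 1/3 of their library's median UMIs. Doublets were left in, since Scrublet's own threshold marked 70 barcodes (0.337%). Removing the 5% with the highest scores was an alternative.

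UMIs were summed per library and tested in R 4.3.3 with edgeR 4.0.16 (filterByExpr, TMM, robust quasi-likelihood fit with 1 coefficient for each of 4 groups over all 16 libraries; adjusted p under 0.1 and fold over 1.3, thresholds that follow the study's methods). Within a class the same fit was run on the class sums. Classes were compared by exact two-sided permutation tests over libraries with SciPy 1.17.1. DESeq2 1.42.0, other scalings, filters, depths and barcode sets were alternatives. The edgeR script was tested on simulated counts. Counting intervals cover counting error only, and the floor for a gene without UMIs was 3 UMIs over the group.

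The members and gene lists were chosen with earlier results of these data known. The lists come from general knowledge, except the upstream mediators. Named genes are the 10 largest rises and falls with non-overlapping libraries and a mean of at least 50 CPM in the higher group (5 per class tested, and 5 interaction genes per direction), and list members with the largest differences or the highest levels. Mitochondrial, ribosomal, immunoglobulin and T cell receptor variable genes and predicted genes were left out of the ranks. Other list members named were chosen after their values were seen, and some members are not reported here. Promoters are from RefSeq on GRCm38.p6, and gene positions from GENCODE vM21, both of the mm10 build.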

Additional observations from a re-analysis of the deposited data

Results flagged for a closer look

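In 31 of 314 groups of 4 libraries (9.87%), 1 library lay apart from the others by Dixon’s test, where chance gives about 1 in 20. Each value is followed by the range of the other 3 libraries. Over all CD45+ barcodes, MC38 RT library 1 had Cysltr1 at 65.3 CPM (79.5 to 81.4), Gbp4 at 232 CPM (86.0 to 103), Irf1 at 401 CPM (199 to 224) and Nos2 at 44.3 CPM (2.45 to 8.28). MC38 RT library 2 had Ifi211 at 652 CPM (486 to 493). MC38 RT library 4 had Pf4 at 304 CPM (90.01 to 92.7) and S100a8 at 28.3 CPM (2.45 to 6.22). Panc02-SIY RT library 1 had Apoc2 at 0.823 CPM (0.0678 to 0.0736), Ifnar2 at 65.5 CPM (60.4 to 61.2) and Pdpn at 3.95 CPM (0.340 to 0.810). Panc02-SIY RT library 2 had Ifng at 403 CPM (185 to 213). Panc02-SIY RT library 3 had Apoe at 574 CPM (487 to 497) and Gdf15 at 4.49 CPM (2.72 to 3.02). Panc02-SIY RT library 4 had Ccl12 at 17.4 CPM (8.54 to 9.05), Ccr2 at 158 CPM (284 to 293), Fcgr1 at 97.1 CPM (44.8 to 53.6), Maf at 163 CPM (242 to 253), Nos2 at 2.75 CPM (0.736 to 0.953) and Phf11d at 24.7 CPM (10.1 to 10.9). Within mononuclear phagocyte-like barcodes, MC38 RT library 4 had Adamdec1 at 0.467 CPM (0). Panc02-SIY RT library 1 had AA467197 at 193 CPM (47.5 to 64.3), Pdpn at 9.89 CPM (0 to 1.09) and Usp18 at 49.4 CPM (28.6 to 31.3). Within T cell-like barcodes, MC38 RT library 4 had Gzmc at 6642 CPM (0 to 5.74). Panc02-SIY RT library 1 had Fam78a at 69.3 CPM (56.6 to 58.6), Gzmb at 721 CPM (1548 to 1703) and Lag3 at 438 CPM (647 to 677). Panc02-SIY RT library 4 had Prf1 at 587 CPM (332 to 361). For class shares, MC38 RT library 1 had B cell-like barcodes at 0% (0.985 to 1.12%). Panc02-SIY RT library 1 had plasmacytoid dendritic cell-like barcodes at 3.40% (1.17 to 1.39%). Panc02-SIY RT library 4 had neutrophil-like barcodes at 8.02% (14.7 to 15.3%). 

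The difference between the lines changed with radiation at these genes by edgeR's interaction term, on the log2 scale, irradiated minus untreated. It was lower in irradiated tumors for Arg1 -2.17 (adjusted p = 0.0776), Mrc1 -1.55 (adjusted p = 0.0951), Cysltr1 -1.26 (adjusted p = 0.0128), Cd33 -1.19 (adjusted p = 0.0776) and Cd14 -1.17 (adjusted p = 0.0776). It was higher for Klrd1 1.27 (adjusted p = 0.0951), Atp2b4 1.13 (adjusted p = 0.0488), Mdm2 0.94 (adjusted p = 0.0776), Sesn3 0.81 (adjusted p = 0.0951) and Nr4a2 0.75 (adjusted p = 0.0776). Mdm2 changed sign and the other differences were nearer 0 in irradiated tumors, and with barcodes of 1 library only no interaction was called in edgeR (748 genes had an unadjusted p under 0.05).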

How the results depend on the processing

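The depth and the sharing of MC38 barcodes limit these comparisons more than any other choice. Of 2387 values recomputed under an alternative (252 counts and shares, 2135 named genes), 2258 were counted as the same. For counts this meant within 1.5 times the value reported, and for shares the same direction and side of the threshold. For named genes it meant the same side of the threshold, and the same direction where the reported value was called. A named gene that was not called could change sign and still be counted as the same. On barcodes of 1 library only, a choice fixed for the counts and shares and added after seeing the data for named genes and for the phagocyte-like class, 3307 genes were called between irradiated tumors, 4125 between untreated tumors, 0 for the interaction (edgeR) and 1842 within phagocyte-like barcodes, and the share differences, MC38 RT minus Panc02-SIY RT, became 4.44 percentage points for unnamed and -0.413 for conventional dendritic cell-like barcodes. Of 127 named-gene values on these barcodes, 87 kept their side of the threshold and, where called, their direction. Of the others, 31 kept only their direction, 8 called values changed sign and 1 (Nr4a2) passed with the opposite sign. With each barcode thinned to 1000 UMIs, the counts were 2871, 3180, 3 and 1014, and 471 within T cell-like barcodes. With all barcodes the share differences were -1.74 points for stromal-like, 1.71 for conventional dendritic cell-like and -1.28 for B cell-like barcodes. With a cell filter (500 genes, 10% mitochondrial UMIs) they were 1.43 for stromal-like, -0.135 for plasmacytoid dendritic cell-like and -1.62 for B cell-like barcodes; at the adjusted exact permutation p the stromal-like and plasmacytoid differences then no longer passed and the B cell-like one did.

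The interaction count of 43 was the least stable: 4 at an adjusted p under 0.05, 12 with libraries thinned to the lowest total, 30 with RLE size factors, 31 with no filter on low counts, 83 with a minimum count of 30, 141 with the replicate block, 149 without stromal-like clusters (added after seeing the data), 191 with library size alone, 261 with DESeq2 and 334 with all barcodes. Leaving out 1 of the 16 libraries at a time gave 3 to 154 interaction genes. Between irradiated tumors it gave 6803 to 7585 called genes, and between untreated tumors 7329 to 7850. Leaving out 1 irradiated library at a time gave 654 to 946 genes within T cell-like and 4332 to 4941 within phagocyte-like barcodes. The B cell-like difference was then -1.20 to -0.615 points. For shares, the exact permutation test of 3 against 4 libraries cannot go below p = 0.0571. The replicate block gave 7400 genes between irradiated tumors, but the numbers were not taken as pairs, since not every same-numbered pair correlated. Correlations of same-numbered libraries' deviations were -0.24 to 0.14 between MC38 RT and Panc02-SIY RT and -0.063 to 0.17 between MC38 NT and MC38 RT. Between Panc02-SIY NT and Panc02-SIY RT they were 0.64, 0.45 and 0.86 for numbers 1, 3 and 4 and -0.13 for number 2, a hint from the data, not from the design.

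These log2 fold changes between irradiated tumors changed sign. With barcodes of 1 library only they were 0.57 for Atp2b4, 0.63 for Nr4a2, -0.18 for Ccl8, -0.13 for Cd33, -0.41 for Gdf15, 0.19 for Maf, -0.49 for Srgn and, within phagocyte-like barcodes, -0.024 for Cd74 and 0.45 for Nlrc5. With thinned barcodes they were 0.35 for Atp2b4, 0.37 for Nr4a2, -0.40 for Trem1, -0.67 for Cd33, -0.13 for Srgn and 0.18 for Nlrc5 within phagocyte-like barcodes. Without MC38 RT library 4, Gzmc was at -4.14 within T cell-like barcodes (4.78 to 5.46 without any other 1 library). The causes were not tested.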
